A study of Mus musculus with 6 samples.

Results

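H3K27me3 peaks called at 30 h of differentiation next to, but not over, an H3K27me3 peak called in proliferating cultures were examined in neural stem cells (NSCs) of the mouse subventricular zone (SVZ). They were chosen by position: peaks of the 30 h list on chromosomes 1 to 19, at most 10 kb wide, that overlapped no proliferating H3K27me3 peak but lay within 5 kb of one, measured between the nearest edges. Of the 15187 peaks in the 30 h list, 1683 met this rule, and they are called flanking peaks here. The proliferating peak nearest to each is called its anchor. Because the rule compares both H3K27me3 lists, overlaps, gaps, widths and scores from those lists are given as descriptions without a test. H3K4me3 did not enter the rule.

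The cells were SVZ-derived NSCs of C57BL/6 mice at passages 5 to 7, grown as monolayers. ChIP-seq recovers DNA bound to a modified histone with an antibody and sequences it, and the authors' called peaks were analyzed. H3K27me3 was profiled in 1 proliferating culture and in 1 culture at 30 h of differentiation, and H3K4me3 in 1 proliferating culture that the labels call ventral, so no comparison has a replicate check. In bulk cultures, a mark carried by few cells and a weaker mark carried by many cannot be told apart.

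H3K27me3 is laid down by EZH2, the catalytic subunit of Polycomb repressive complex PRC2, and marks genes that are kept silent. Its partner subunit EED binds the mark already present and stimulates the enzyme, which is one way known for H3K27me3 to extend from an initial site into neighboring chromatin and form broad domains. H3K4me3 marks promoters, mostly active ones, and promoters that carry both marks are called bivalent. In the SVZ, NSCs give rise to neuroblasts of the olfactory bulb. The paper proposed that EZH2 might promote neurogenesis through H3K27me3 placed at certain loci during differentiation. Its text describes ChIP-seq of proliferating cultures, and it reported a gain at the gene Olig2 by ChIP-qPCR in sorted neuroblasts.

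Flanking peaks were a small part of the 30 h list. On chromosomes 1 to 19 there were 14871 peaks at 30 h, of which 1158 were wider than 10 kb. Of the other 13713, 3503 overlapped a proliferating peak (shared peaks), 8527 lay more than 5 kb from any (remote peaks) and 1683, or 12.3%, were flanking. Among the 10210 peaks without overlap, flanking peaks made up 16.5% (95% Wilson confidence interval 15.8 to 17.2%, counting error only). They covered 5.74 Mb, or 7.97% of the 72.1 Mb under H3K27me3 at 30 h on these chromosomes. The 30 h list was longer than the proliferating list of 9470 peaks, and how far this length shapes the counts below was not tested.

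Gaps to the anchor ran from 1 to 4994 bp, with a median of 2364 bp and quartiles of 1229 and 3538 bp. Only 24 flanking peaks (1.43%) lay within 100 bp of the anchor. Counted per kb of gap, 30 h peaks without overlap numbered 338 below 1 kb, 372 from 1 to 2 kb and 305 from 4 to 5 kb. Beyond the limit of the rule they numbered 288 from 5 to 6 kb and 179 from 9 to 10 kb. The number thus declined gradually, without a step at the limit. Just inside it lay peaks on chromosome 5 with gaps of 4994 and 4992 bp and scores of 50.56 and 236.45, and just outside it peaks on chromosomes 5 and 17 with gaps of 5004 bp each and scores of 175.62 and 61.93. The widest peaks inside the width limit were 9955 and 9901 bp, and the narrowest beyond it that met the other terms were 10106 and 10439 bp. Without the width limit, 30 more peaks would have been flanking.

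**Figure D1:**
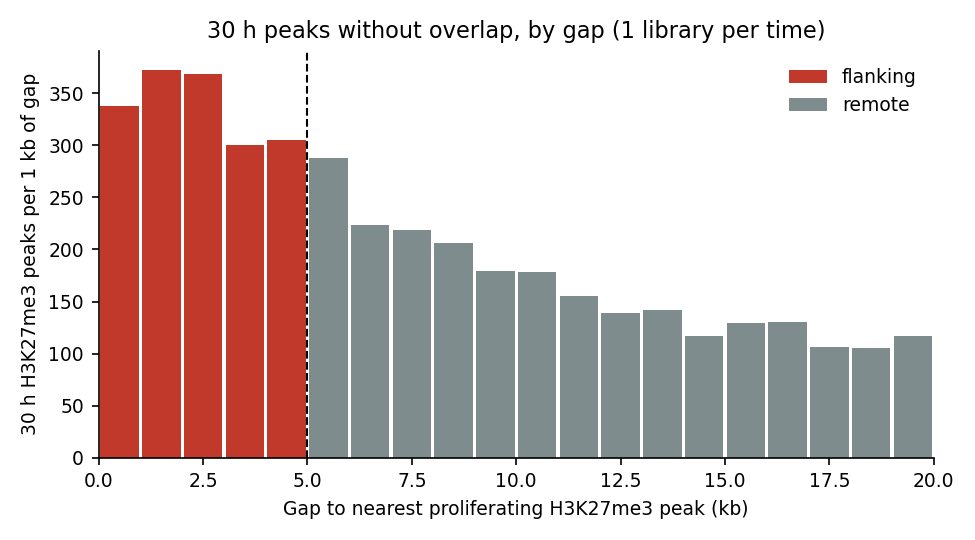
Number of 30 h H3K27me3 peaks without overlap (y axis, peaks per 1 kb of gap) against the gap to the nearest proliferating H3K27me3 peak (x axis, kb), 1 library per time. Bars left of the dashed line are flanking peaks. Counts fall gradually, from 372 between 1 and 2 kb to 288 between 5 and 6 kb and 117 between 19 and 20 kb.

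In size and strength the flanking peaks were closer to remote than to shared peaks. Their median width was 2912 bp (quartiles 2217 and 4008 bp), against 2765 bp for remote and 4516 bp for shared peaks. The score is the peak caller's own value, and ranks peaks only within a list. Its median was 123 for flanking peaks (quartiles 78.7 and 224), 108 for remote and 376 for shared peaks. This order also held within bands of width, but under 2000 bp the medians were close. There they were 60.81 for 210 flanking, 59.25 for 1177 remote and 63.22 for 142 shared peaks. Among peaks of 2000 to 5000 bp, the median score was 120 for 1223 flanking, 110 for 6331 remote and 218 for 1879 shared peaks. Among peaks over 5000 bp it was 431 for 250 flanking, 404 for 1019 remote and 745 for 1482 shared peaks. Widths still differed within these bands. From 2000 to 5000 bp the median width was 3399 bp for shared and 2874 bp for flanking peaks. Over 5000 bp it was 6877 and 6334 bp. With the 30 h list ranked by score into 5 equal groups, 90 flanking peaks (5.35%) fell in the strongest group, against 39.9% of the shared and 3.88% of the remote peaks.

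Some flanking peaks were nevertheless strong and wide. The highest-scoring lay at chr1:92488976-92498690, was 9714 bp wide and scored 1243.55. Its anchor, 2276 bp away, was 1712 bp wide with a score of 60.53, close to the lower end of the proliferating list at 50.01. Next in score came peaks at chr10:120464093-120470426 (1216.97), chr14:64207087-64216603 (1176.98), chr14:31279752-31287865 (1174.93) and chr14:70428691-70437641 (1055.53). Their anchors scored 143.09, 75.44, 54.74 and 183.9. Of these 5 anchors, those scoring 143.09 and 183.9 were above the anchor median of 103 and the other 3 below it.

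The widest flanking peak, at chr7:81037416-81047371, measured 9955 bp and scored 1011. Its anchor was 1467 bp wide, scored 54.17, and had no 30 h peak over it. Peaks at chr12:57581891-57591792, chr6:127487145-127496942 and chr13:56270078-56279856, of 9901, 9797 and 9778 bp, also lay beside anchors with scores under 60, of 56.03, 59.54 and 52.82. The exception among the 5 widest was at chr6:6836288-6846073, 9785 bp wide, whose anchor spanned 16067 bp and scored 3100. Over all flanking peaks, 1078 (64.1%) were wider than their anchor. The lists differed in width in general. All 30 h peaks of at most 10 kb had a median width of 3076 bp. Anchors had a median of 2258 bp and other proliferating peaks 2050 bp. How far this sets the 64.1% was not tested.

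Strength of the flanking peak and strength of the anchor showed no common trend. From the weakest to the strongest 30 h score group of flanking peaks, the median anchor score was 104, 108, 99.0, 103 and 99.4. The share whose anchor belonged to the strongest of 5 proliferating score groups was 25.5% for the weakest and 24.4% for the strongest flanking peaks.

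The 1683 flanking peaks had 1501 anchors, 16.7% of the 9013 proliferating peaks on these chromosomes. Of the anchors, 1330 had 1 flanking peak, 160 had 2 and 11 had 3. Flanking peaks lay on both sides of 110 anchors, and on the same side of the other 61 with more than 1. Conversely, 112 flanking peaks had a proliferating peak within 5 kb on each side. Anchors had a median width of 2258 bp (quartiles 1760 and 3405 bp), against 2050 bp for the other proliferating peaks, and a median score of 103 against 86.7. Strong proliferating peaks were anchors more often than weak ones, 20.6% of the strongest score group against 12.6% of the weakest. Of the 298 proliferating peaks over 10 kb, 52 (17.4%) were anchors.

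The anchor itself was mostly kept in the 30 h list. Of the 1501 anchors, 1304 (86.9%, 95% Wilson interval 85.1 to 88.5%) lay under another 30 h peak. For all proliferating peaks on these chromosomes this share was 62.6%, and for those that were no anchor 57.7%. Anchors and other peaks differed most among weak proliferating peaks. In the weakest score group 71.9% of 228 anchors and 29.5% of 1575 other peaks lay under a 30 h peak, in the middle group 82.4% and 49.3%, and in the strongest 99.5% and 99.2%. An anchor is by the rule a proliferating peak with a 30 h peak close by. Another 30 h peak lay within 5 kb of 91.6% of flanking peaks. This share was 57.5% for all 30 h peaks on these chromosomes, 48.5% for remote and 56.7% for shared peaks. A 30 h peak over the anchor counts as such a neighbor, so the 91.6% largely restates that anchors were covered. Where no 30 h peak lay over the anchor, 42.1% of 235 flanking peaks had a neighbor. Among remote peaks the share fell with the gap, from 72.8% at 5 to 10 kb to 51.8% at 10 to 50 kb and 39.4% beyond 50 kb. These shares come from the same 2 lists as the rule and are not evidence independent of it.

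For 1448 flanking peaks (86.0%) the anchor lay under a 30 h peak, so that the locus held a flanking peak beside a covered anchor. The covering peak or peaks had a median width of 5952 bp over anchors with a median of 2430 bp. On the side of the flanking peak they passed the edge of the anchor in 1229 cases (84.9%), by a median of 795 bp over all cases, and on the other side in 1305 (90.1%), by a median of 1893 bp. The first extent is bounded by the flanking peak itself. What remained between flanking and covering peak had a median of 974 bp (quartiles 378 and 2195 bp), and was at most 500 bp in 459 cases (31.7%). The rule limits this distance in large part, because it puts the anchor within 5 kb. Between neighboring 30 h peaks in general the median gap was 3235 bp (quartiles 711 and 16775 bp). A further 30 h peak lay wholly between flanking peak and anchor in 57 cases. From the outer edge of the flanking peak to the far edge of the covering peak, the median span was 11141 bp.

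The flanking peak was the weaker peak of the locus in most cases. In 1268 of the 1448 (87.6%) it scored below the strongest 30 h peak over the anchor, with medians of 125 and 618. The rule limits the width of flanking peaks but not of covering peaks, and wider 30 h peaks scored higher. Their median score was 124 from 2000 to 5000 bp and 548 over 5000 bp, among those of at most 10 kb. The scores of flanking and covering peaks were not compared at similar widths. The flanking peak scored above it in 2.57% of the weakest and 39.2% of the strongest score group of flanking peaks, where 31 of 79 did. The groups are cut by the same score that is compared here, so a rise between them is largely set by the grouping.

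For the other 235 flanking peaks (14.0%) no 30 h peak lay over the anchor, so the lists show a proliferating peak and a 30 h peak side by side. These anchors were weak and narrow, with a median score of 65.9 and a median width of 1696 bp, and none scored above 305.88. The anchors of the 1448 had a median score of 117. The flanking peaks themselves differed less, with median scores of 108 and 125 and median widths of 2791 and 2939 bp. Another 30 h peak lay within 5 kb of 99 of the 235 (42.1%).

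The smallest gaps belonged to both kinds. At chr6:83474749-83480456 the flanking peak (5707 bp, score 304.46) ended 1 bp before its anchor, which lay under another 30 h peak 1043 bp away. At chr17:6915058-6917039 the gap was 3 bp and the anchor was also covered at 30 h. At chr19:6919629-6922911, chr6:6887472-6891406 and chr4:130441697-130443890 the gaps were 5, 7 and 20 bp, and no 30 h peak lay over the anchors, which scored 53.55, 63.62 and 61.57. Edges this close to touching show that the absence of overlap can rest on a few bases.

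The anchors with 3 flanking peaks show the arrangement at single loci. The widest of the 11, at chr7:86195633-86201113 (5480 bp, score 711.9), was covered at 30 h by a peak of 8770 bp with a score of 1531.24. Its flanking peaks were 1979, 1944 and 1990 bp wide, scored 73.35, 82.54 and 69.57, and lay 4070 bp away on the side of lower coordinates and 2419 and 4628 bp away on the other. The H3K4me3 peak of this locus, 1506 bp wide, lay inside the anchor and met none of the flanking peaks.

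At chr17:72949465-72954202 the anchor (4737 bp) lay under a 30 h peak of 6034 bp that scored 1502.01, and its flanking peaks scored 113.61, 142.93 and 89.66. An H3K4me3 peak of 2268 bp overlapped the anchor but no flanking peak. At chr5:29865330-29870657 (5327 bp) there was no H3K4me3 peak, the 30 h peak over the anchor (5307 bp, score 257.13) overlapped only its lower part, and the flanking peaks scored 107.27, 107.14 and 236.45. Here the strongest flanking peak came close to the covering peak, whereas at the other loci all were far below it.

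**Figure D2:**
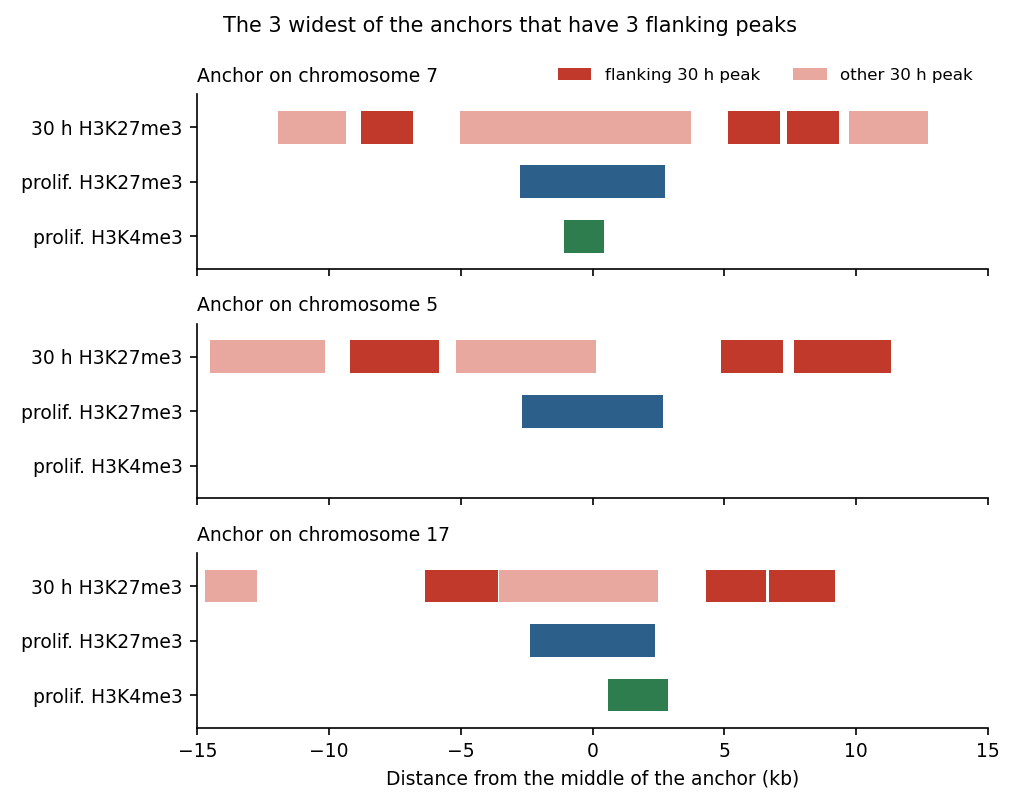
Peaks of the 3 lists (rows) around the 3 widest anchors that have 3 flanking peaks, drawn to scale by distance from the middle of the anchor (x axis, kb). Flanking peaks (dark red) stand on both sides of the 30 h peak over the anchor (light red), and the H3K4me3 peaks on chromosomes 7 and 17 overlap the anchor and no flanking peak.

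H3K4me3 was rare under flanking peaks. Of the 1683, 88 (5.23%, 95% Wilson interval 4.26 to 6.40%) overlapped an H3K4me3 peak of proliferating cultures, against 16.0% of all 30 h peaks on these chromosomes and 13.7% of the 13713 that were at most 10 kb wide. Of the shared peaks 35.4% did (33.9 to 37.0%), a difference, flanking minus shared, of -30.2 percentage points (95% Newcombe interval -32.1 to -28.2). With only the stronger 50% of the H3K4me3 list this difference was -5.33 points (-6.36 to -4.24). Remote peaks were much closer to flanking peaks at 6.52% (6.02 to 7.06%), a difference of -1.29 points (-2.40 to -0.018). This direction was not stable: with a gap limit of 2500 bp the difference was 0.590 points (-0.975 to 2.50), and under 4 other alternatives its interval included 0. With a gap limit of 10000 bp it was -2.83 points (-3.75 to -1.84). The interval also stayed below 0 without the width limit and with the stronger 50% of the proliferating list. These intervals cover counting error over peaks of 1 library per mark, and do not measure variation between cultures.

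Wide peaks meet other peaks more easily, so the shares were also compared within width bands. Flanking and shared peaks differed in each of the 3 bands, by -22.2 points under 2000 bp (-30.7 to -13.9), -31.3 points from 2000 to 5000 bp (-33.8 to -28.8) and -30.2 points over 5000 bp (-33.4 to -26.1). Flanking and remote peaks were not set apart in any band: the differences were 1.04 points (-2.34 to 5.72), -1.34 points (-2.57 to 0.127) and -3.35 points (-6.09 to 0.383). Within bands, which hold fewer peaks, the intervals of the difference from remote peaks thus included 0. From 2000 to 5000 bp and over 5000 bp the differences were no smaller than the overall -1.29 points. The difference from shared peaks held in each band. Peak strength gave the same picture for shared peaks: in the weakest 30 h score group 3.98% of flanking and 19.7% of shared peaks overlapped H3K4me3, and in the strongest 5.56% of 90 and 42.8% of 1397.

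**Figure D3:**
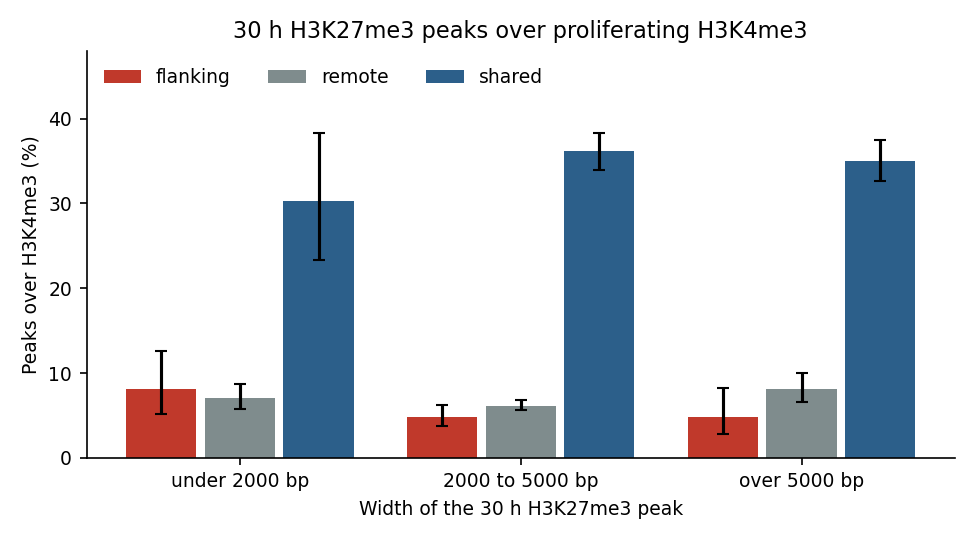
Share of 30 h H3K27me3 peaks over an H3K4me3 peak of proliferating cultures (y axis, percent) by width of the peak (x axis) for flanking, remote and shared peaks. Each bar is a share in 1 library, and its error bar the 95% Wilson interval. Flanking peaks range from 4.80 to 8.10%, near remote peaks, and shared peaks from 30.3 to 36.1%.

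Within the flanking peaks, those nearest to the anchor met H3K4me3 most often. The share was 11.2% of 338 below 1 kb (8.30 to 15.1%), 5.38% of 372 from 1 to 2 kb, 2.45% of 368 from 2 to 3 kb, 5.33% of 300 from 3 to 4 kb and 1.64% of 305 from 4 to 5 kb (0.702 to 3.78%). It was 2.78% of 1116 remote peaks from 5 to 10 kb, 4.65% of 3225 from 10 to 50 kb and 8.96% of 4186 beyond 50 kb (8.13 to 9.86%). The share was thus highest next to a proliferating peak and beyond 50 kb, and varied without a steady trend between, where the class from 3 to 4 kb stood above its neighbors with an interval of 3.31 to 8.49%. The median width by class ranged from 2652 bp beyond 50 kb to 3144 bp from 1 to 2 kb.

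**Figure D4:**
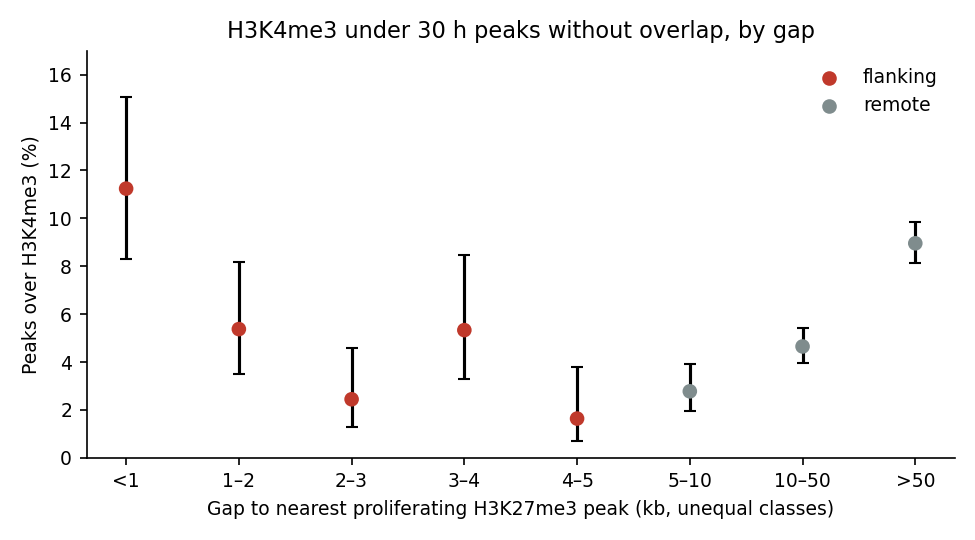
Share of 30 h peaks without overlap that lie over H3K4me3 (y axis, percent) by gap to the nearest proliferating H3K27me3 peak (x axis, kb, in classes of unequal width), with 95% Wilson intervals, 1 library per mark. It is 11.2% below 1 kb, between 1.64 and 5.38% from 1 to 50 kb with no steady trend, and 8.96% beyond 50 kb.

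H3K4me3 was more frequent over anchors than over flanking peaks, although most anchors had none. Anchors overlapped H3K4me3 in 405 of 1501 cases (27%, 24.8 to 29.3%), against 20.0% of all proliferating peaks and 18.6% of those that were no anchor, a difference from the latter of 8.37 points (95% Newcombe interval 6.01 to 10.8). Part of this goes with the strength of anchors. Within the strongest 2 of the 5 proliferating score groups anchors were still higher, by 8.73 points (3.08 to 14.2) and 8.35 points (3.45 to 13.6). In the weaker 3 groups the intervals of the difference included 0, with differences of 0.94, 1.25 and 2.76 points.

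Beside covered anchors, H3K4me3 was found under the covering 30 h peak in 512 of 1448 cases (35.4%) and under the flanking peak in 82 (5.66%, 4.59 to 6.97%). In 456 cases it was under the covering peak alone, in 26 under the flanking peak alone, in 56 under both and in 910 under neither. A covering peak overlaps a proliferating H3K27me3 peak by definition, as shared peaks do, so its share is not evidence independent of theirs. Covering peaks also had no width limit. The median width over the anchor was 5952 bp, against 2939 bp for these flanking peaks, and the shares were not compared at similar widths. Where the anchor was not covered, 6 of 235 flanking peaks overlapped H3K4me3 (2.55%, 1.18 to 5.46%).

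H3K4me3 was also uneven around the flanking peaks. Among the 1595 that did not overlap it, 300 (18.8%) had an H3K4me3 peak within 5 kb on the side of the anchor and 129 (8.09%) on the other side. Of the 381 with H3K4me3 on 1 side only, 276 (72.4%, 95% Wilson interval 67.7 to 76.7%) had it on the side of the anchor. The median distance to the nearest H3K4me3 peak was 14942 bp for flanking, 30148 bp for remote and 6269 bp for shared peaks, so flanking peaks lay nearer to H3K4me3 than remote peaks although they overlapped it no more often. The rule puts a proliferating H3K27me3 peak within 5 kb on the anchor side, and 20.0% of all such peaks overlapped H3K4me3. Part of the excess on that side and of the shorter distance is therefore set by the rule. How large that part is was not tested.

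Read outward from the flanking peaks, the average coverage showed the same asymmetry. H3K4me3 covered on average 5.77% of positions within 5 kb on the anchor side and 2.63% on the other, which the rule sets in part because it places the anchor. H3K27me3 peaks of the 30 h list covered 60.9% and 22.7%. The rule sets this in part too, since 62.6% of all proliferating peaks on these chromosomes lay under a 30 h peak. On the side away from the anchor the 30 h coverage was similar farther out, at 25.3% from 5 to 10 kb. Proliferating H3K27me3 covered 38.4% and 1.80% within 5 kb, which the rule sets, and 6.51% from 5 to 10 kb on the side away from the anchor.

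**Figure D5:**
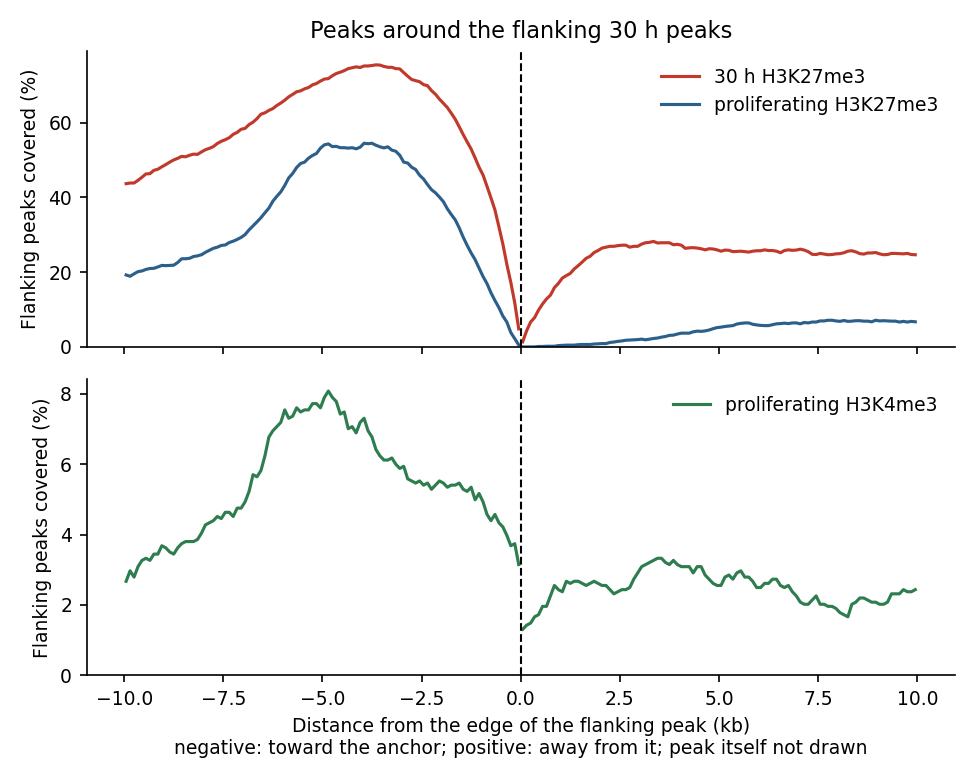
Percent of the 1683 flanking peaks with a peak of each list at a given distance from their edge (x axis, kb, in steps of 100 bp), toward the anchor (negative) and away from it (positive); the flanking peak itself is not drawn, and the y axes of both panels differ. 30 h H3K27me3 peaks at 75.5% at -3650 bp and, on the other side, 28.2% at 3350 bp, and H3K4me3 at 8.08% at -4850 bp and 3.33% at 3450 bp.

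The strongest flanking peaks over H3K4me3 met it only in part. At chr10:120464093-120470426 (6333 bp, score 1216.97) H3K4me3 covered 678 bp, and the anchor lay 254 bp away. At chr9:44864007-44869826 (5819 bp, score 997.72) it covered 165 bp with the anchor 2684 bp away, and at chr2:131388658-131396303 (7645 bp, score 610.94) 572 bp with a gap of 277 bp. Over the 88 flanking peaks, the median share of the peak under H3K4me3 was 22.1%.

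In all, 90 H3K4me3 peaks met a flanking peak. Of these, 35 also overlapped a proliferating H3K27me3 peak and 44 another 30 h peak. Their median score was 1128 and their median width 1744 bp, close to the H3K4me3 peaks that met remote peaks (1126 and 1546 bp). H3K4me3 peaks that met shared peaks had a median score of 809, and all 18037 on these chromosomes 2732. H3K4me3 was measured only in proliferating cultures, so its state under these peaks at 30 h was not analysed.

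Flanking peaks occurred on each of the 19 chromosomes, from 23 on chromosome 18 to 178 on chromosome 11. They made up 11.0 to 21.5% of the 30 h peaks without overlap, lowest on chromosome 18 and highest on chromosome 5, with a median of 16.3%. Relative to the proliferating peaks present, there were 10.2 flanking peaks per 100 on chromosome 18 and 26.5 on chromosome 11.

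The reverse arrangement was less frequent. With the same limits, 308 proliferating peaks overlapped no 30 h peak but lay within 5 kb of one, 9.14% of the 3371 proliferating peaks without overlap. Their median width was 1708 bp and their median score 67.6, hardly above the 66.8 of proliferating peaks farther from the 30 h list. H3K4me3 lay over 32 of them (10.4%, 95% Wilson interval 7.46 to 14.3%), against 3.30% of the 3063 farther ones. Both shares were below the 20.0% of all proliferating peaks on chromosomes 1 to 19. The 308 and the 1683 come from lists of unequal length, and were not compared by a test.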

How the data were processed

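ChIP-seq peak lists of 3 libraries were used: H3K27me3 in proliferating SVZ NSCs, H3K27me3 at 30 h of differentiation, and H3K4me3 in proliferating NSCs. The authors called peaks with MACS, with no model and no lambda for H3K27me3. The submitters' processing notes name Bowtie2 and mm9. The sources used here do not give the caller's version, its threshold or how inputs entered. The deposited lists hold positions and a score per peak. This score was used only for ranking within a list, and coordinates are as deposited in mm9. Without counts of reads, sequencing depth is unknown, and intervals cover the number of peaks only.

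Overlap required 1 bp. Classes, gaps, anchors (nearest proliferating peak, with ties to the lower start) and shares were obtained in Python 3.11.15 (pandas 2.3.3, numpy 2.4.6; scipy 1.17.1 for intervals). The code was tested on simulated data, and bedtools 2.31.1 gave the same overlap and gap for 13713 of 13713 peaks. Figures used matplotlib 3.10.9. Score groups are 5 equal groups within a list. With 1 library per group there was no test between conditions. Shares carry 95% Wilson intervals and differences of shares over H3K4me3 95% Newcombe intervals.

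Named peaks are the 5 widest, 5 highest-scoring and 5 closest flanking peaks, the 3 strongest over H3K4me3, the 3 anchors with the most flanking peaks (ties broken by width) and those at the limits. The members, classes and comparisons were chosen with earlier results of these data known. The comparisons by gap, by side of the anchor, by score group of the flanking peak and in the reverse direction were added after seeing the values. The planned share at gene starts was not computed, and no peak is tied to a gene or a sequence, because gene positions were at hand only for GRCm38, and an mm9 genome was not used here. For the same reason the cell type was not checked against marker genes.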

Additional observations from a re-analysis of the deposited data

How the results depend on the processing

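The lower share of flanking than of shared peaks over H3K4me3 held in all 8 alternatives, from -37.8 to -5.33 points, each interval below 0; it was smallest with the stronger 50% of the H3K4me3 list. The difference from remote peaks was not stable: it turned to 0.590 points with a gap limit of 2500 bp, and its interval included 0 with the stronger 50% of the 30 h list (-1.35), H3K4me3 within 1000 bp (-0.129), the stronger 50% of the H3K4me3 list (-0.153) and 50% of the shorter peak overlapped (-0.870). Its interval stayed below 0 with a gap limit of 10000 bp (-2.83 points, -3.75 to -1.84) and without the width limit (-1.40, -2.50 to -0.150). The same held with the stronger 50% of the proliferating list (-1.65, -2.98 to -0.077). The alternatives on differences were chosen after seeing the data.

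With a gap limit of 2500 bp there were 891 flanking peaks, 84.1% of anchors lay under a 30 h peak and 6.85% of flanking peaks over H3K4me3. With 10000 bp there were 2799, 4.25% over H3K4me3 and 84.1% within 5 kb of another 30 h peak. With the stronger 50% of the proliferating list, 94.8% of anchors were covered, 96.9% of flanking peaks had a neighbor, and the median score was 138 and the median anchor width 3175 bp. With the stronger 50% of the 30 h list, which by construction removes weak peaks, there were 681 flanking peaks with a median score of 253, 79.7% of anchors covered, 6.46% over H3K4me3 and 83.6% with a neighbor. H3K4me3 was met by 9.80% within 1000 bp, 1.72% with its stronger 50% and 2.50% with 50% of the shorter peak overlapped. At least 50% of the anchor was covered in 84.5%, and a neighbor lay within 2500 bp in 79.6%. Why these values moved was not tested. Without the width limit there were 1713 flanking peaks, and the difference from shared peaks was -33.1 points (-34.8 to -31.2).

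No paired analysis was possible because each group has 1 library. Unknown depth limits every count.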

Other observations

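Chromosome X lay outside the rule. It held 142 H3K27me3 peaks at 30 h and 285 in proliferating cultures, and of the 105 peaks at 30 h of at most 10 kb without overlap, 6 lay within 5 kb of a proliferating peak. The 30 peaks wider than 10 kb that met the other terms of the rule were not described here.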
